A study of Mus musculus with 15 samples.

Results

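The comparison of the purple corn diet with the yellow corn diet covered 6 of the 15 mice of the study, 3 fed purple corn (RD) and 3 fed yellow corn (YD), each with 1 library of histone H3 trimethylated at lysine 4 (H3K4me3) from liver. Both diets replaced the maize of a standard chow. The RD corn was the B1 Pl1 hybrid, whose seeds are rich in anthocyanins, and the YD corn a near-isogenic b1 pl1 hybrid without anthocyanins, and the energy content was the same. All mice were wild-type C57BL/6J females that started their diet at 3 months and were fed for 10 months, while the labels give the age as 12 months. The other 9 mice received the standard diet (SD), caloric restriction (CR) or a high-fat diet (HF), 3 mice each, and appear here only where their values show what the RD and YD differences share with them. The litters of origin of the single mice are not given in the labels, so the p-values measure the spread between these mice, whatever its source.

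H3K4me3 is the histone mark of active and poised promoters, deposited by the Set1 and MLL methyltransferase complexes around transcription start sites (TSSs) and removed by Kdm5 demethylases. It is usually strongest at CpG-rich promoters, and broad domains of the mark are known at genes that define a cell type. In liver most chromatin comes from hepatocytes, which carry out the metabolism of sugars, lipids, amino acids, bile acids and dietary compounds such as anthocyanins, the red to blue flavonoid pigments of plants. The mark was read from formalin-fixed, paraffin-embedded liver sections, and stretches with more reads than a random background of the same library, called islands, were listed for each mouse. Whether the listed islands had also passed a comparison with an input control or a false discovery rate is not given in the sources used here, so that an island stands for a listed stretch and not for a tested peak. An island was assigned to a protein-coding gene when it lay within 1 kb of any of its annotated TSSs. In bulk liver, fewer cells that carry the mark and less of the mark per cell cannot be told apart.

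The 237 genes with an island in all 3 RD mice and in no YD mouse had CpG-rich promoters, much like those of the 2203 genes with an island in all 6 mice. In a 300-base window around the most CpG-rich TSS of each gene, from 250 bases before to 50 bases after it, the median number of CpG dinucleotides was 28 in the 237 genes, 27 in the 2203 genes, 18 over all 21755 protein-coding genes and 8 in the 12176 genes with no island in any of the 6 mice. Only 2.53% of the 237 genes had fewer than 5 CpGs, compared with 22.6% of all protein-coding genes. The letters GGGCGG (the GC box), searched on both strands, were present in 74.7% of the 237 windows, in 69.0% of those of the 2203 genes and in 51.1% of all windows. The E-box letters CACGTG, which read the same on both strands, were present in 15.2% of the 237 windows, in 8.67% of the 2203 and in 8.12% of all. TATAAA, on either strand, was present in 5.06% of the 237 windows, in 5.45% of the 2203 and in 10.8% of all. CCAAT, also on either strand, was present in 32.9%, 33.5% and 34.7%, in the same order. These shares describe the letters alone.

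Promoter sequences are shown here for 3 of the widest RD islands and the 3 widest YD islands among the genes marked in all mice of 1 diet and none of the other, so that the CpG content behind the islands can be read directly. They come from RefSeq on GRCm38.p6 and run 5′ to 3′ on the strand of the gene, with each CpG in capitals. For the RD mice they are Hps4 (chr5:112342845-112343144, plus strand, 48 CpGs), Frs2 (chr10:117148425-117148724, minus strand, 24 CpGs and 2 GC boxes) and Zfp975 (chr7:42692669-42692968, minus strand, 8 CpGs and 1 CCAAT box).
Hps4: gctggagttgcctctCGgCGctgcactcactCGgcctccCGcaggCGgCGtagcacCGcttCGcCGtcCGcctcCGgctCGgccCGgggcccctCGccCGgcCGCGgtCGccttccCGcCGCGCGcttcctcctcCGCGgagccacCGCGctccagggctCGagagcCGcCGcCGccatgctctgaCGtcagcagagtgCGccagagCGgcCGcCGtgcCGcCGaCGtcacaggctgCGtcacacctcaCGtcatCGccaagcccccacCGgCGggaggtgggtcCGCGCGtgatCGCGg
Frs2: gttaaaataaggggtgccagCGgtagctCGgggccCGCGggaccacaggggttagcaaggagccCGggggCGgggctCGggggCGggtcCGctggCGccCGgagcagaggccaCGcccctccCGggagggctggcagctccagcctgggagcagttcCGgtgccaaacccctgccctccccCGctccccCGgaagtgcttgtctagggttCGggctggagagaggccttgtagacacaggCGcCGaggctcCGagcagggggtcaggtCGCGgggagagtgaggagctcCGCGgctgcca
Zfp975: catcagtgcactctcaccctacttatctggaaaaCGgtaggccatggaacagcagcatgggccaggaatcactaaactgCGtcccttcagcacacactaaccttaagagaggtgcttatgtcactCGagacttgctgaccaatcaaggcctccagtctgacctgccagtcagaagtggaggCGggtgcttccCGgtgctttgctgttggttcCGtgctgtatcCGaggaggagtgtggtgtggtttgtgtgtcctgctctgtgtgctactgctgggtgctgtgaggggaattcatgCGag

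For the YD mice they are Shmt2 (chr10:127522395-127522694, minus strand, 13 CpGs) and the divergent pair Cntd1 (chr11:101278953-101279252, plus strand, 12 CpGs) and Coa3 (chr11:101278899-101279198, minus strand, 15 CpGs). The windows of Cntd1 and Coa3 overlap on opposite strands, and both hold a CCAAT box and an E-box. The window of Cntd1 also holds 1 GC box and that of Coa3 2.
Shmt2: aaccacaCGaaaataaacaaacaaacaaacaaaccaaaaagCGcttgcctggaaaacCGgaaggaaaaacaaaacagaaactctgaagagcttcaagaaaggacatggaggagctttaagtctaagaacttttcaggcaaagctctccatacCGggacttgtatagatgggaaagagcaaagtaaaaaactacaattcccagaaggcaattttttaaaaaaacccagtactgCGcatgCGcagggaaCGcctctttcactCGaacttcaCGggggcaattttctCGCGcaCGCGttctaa
Cntd1: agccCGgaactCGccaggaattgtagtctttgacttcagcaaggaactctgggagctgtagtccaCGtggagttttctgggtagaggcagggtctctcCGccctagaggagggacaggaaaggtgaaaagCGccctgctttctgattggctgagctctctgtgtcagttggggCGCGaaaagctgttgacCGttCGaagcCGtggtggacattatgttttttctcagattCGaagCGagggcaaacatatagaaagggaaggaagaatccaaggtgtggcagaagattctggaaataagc
Coa3: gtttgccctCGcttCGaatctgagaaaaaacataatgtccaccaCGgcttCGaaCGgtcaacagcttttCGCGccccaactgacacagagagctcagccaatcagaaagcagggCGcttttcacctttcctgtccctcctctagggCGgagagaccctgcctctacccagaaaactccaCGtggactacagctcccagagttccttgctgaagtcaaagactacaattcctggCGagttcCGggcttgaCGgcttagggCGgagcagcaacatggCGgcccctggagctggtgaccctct
The widest RD example, Fat1, had its islands 88.7 kb from the RefSeq promoter window and the window of Fat1 is therefore not shown. D3Ertd254e, Pcdhga4 and Srrd are named only.

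Before the genes are compared, the lists themselves have to be described, because presence in a list depends on its length. The YD lists held 7825, 9405 and 10906 islands (YD_1 to YD_3) and the RD lists 14454, 32131 and 12658 (RD_1 to RD_3), so that the ranges did not overlap. The total reads behind each list, worked back from the steps of the scores, were 15449854 in YD_1 and 13978169 in RD_2 but between 8337057 and 9445807 in the other 4 mice. Both deep libraries stood apart, in different ways. YD_1 had the shortest list of the 6. RD_2 had the longest, with 25.04% of its islands within 1 kb of a TSS of any gene against 33.7% to 62.4% in the other 5 mice. The lowest score in each list also differed, from 14.5 in YD_3 to 26.8 in YD_1. The part of depth and list length in the differences between the diets was not tested. The share of all protein-coding genes with an island and the counts of genes marked in 1 diet only are given again without both deep libraries and with lists of equal length.

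The share of protein-coding genes with an island was higher in every RD mouse than in any YD mouse. It was 31.2%, 34.7% and 27.8% in RD_1 to RD_3 and 24.3%, 26.5% and 17.5% in YD_1 to YD_3. The difference of 8.45 percentage points (RD mean 31.2% ± 3.46, YD mean 22.8% ± 4.69, SD over 3 mice) had a two-sided exact permutation p of 0.1, the smallest that 3 mice against 3 can give. When the 7825 highest-scoring islands were taken from each list, the shares were 24.3%, 17.3% and 22.2% in RD and 24.3%, 24.2% and 14.7% in YD, and the difference was 0.192 points (exact permutation p = 0.9, n = 3 each). Only islands scoring at least 26.8, the highest of the 6 lowest scores, gave a difference of 6.54 points with overlapping groups (exact permutation p = 0.4, n = 3 each). The gap between the diets was present in the deposited lists and nearly gone when the lists had the same number of islands. Without both deep libraries it was 7.47 points.

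**Figure D1:**
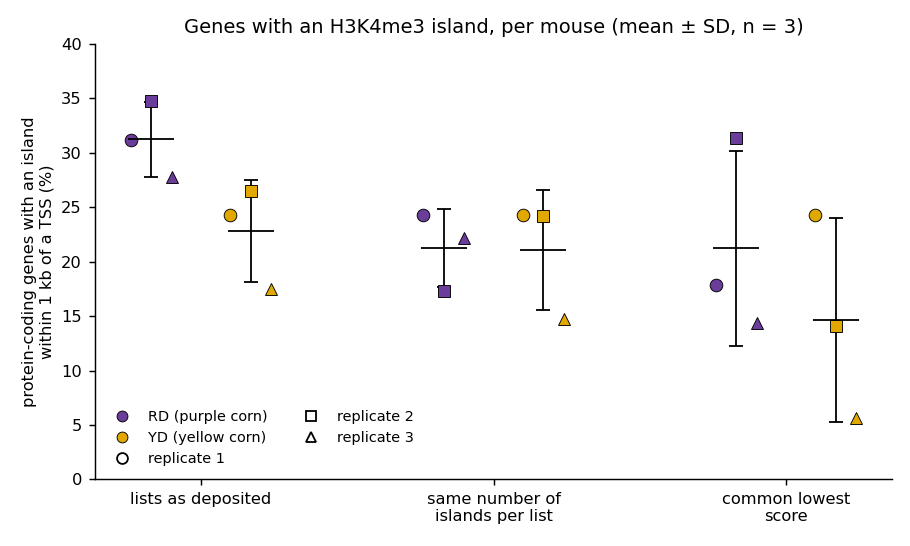
Percentage of the 21755 protein-coding genes with an H3K4me3 island within 1 kb of a TSS in each RD (purple) and YD (yellow) mouse, for the lists as deposited, the 7825 highest-scoring islands of each list and islands at or above the common lowest score. Symbols are mice, and horizontal marks with bars are the mean ± SD (n = 3): the groups are separate only in the lists as deposited, and RD_2 moves from the highest value to the lowest of its group with lists of equal length.

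Promoters with an island in RD and not in YD far outnumbered the reverse in the deposited lists. Of 21755 genes, 829 (3.81%) had an island in at least 2 RD mice and no YD mouse, against 53 (0.244%) with an island in at least 2 YD mice and no RD mouse. With all 3 mice of a diet required, 237 genes (1.09%) were on the RD side and 6 (0.0276%) on the YD side. No single gene can pass a test of presence, since 3 mice against 0 of 3 has a Fisher's exact p of 0.1. With lists of equal length the order turned, to 28 genes on the RD side and 57 on the YD side, and the counts for at least 2 mice were 276 and 324. Islands at or above the common lowest score gave 78 and 3 genes. The RD_1 library is named in the PATChIP form and the other 5 in the ChIP form, a difference whose meaning is not given in the sources used here. Within the ChIP form, 421 genes had an island in both RD mice and no YD mouse, 14 had one in all 3 YD mice and neither RD mouse, and the share of marked genes differed by 8.49 points. Without RD_2 and YD_1, the 2 remaining mice of each diet gave 675 genes on the RD side and 117 on the YD side.

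The 237 RD-side genes lay at 230 separate regions, since some share an island across divergent promoters, and in 225 genes (94.9%) the islands of the 3 mice covered common bases. In their lists these islands ranked near the middle, with a median score percentile of 60.8, 56.99 and 57 in RD_1 to RD_3, whereas the islands of the 2203 shared promoters had medians of 85.5, 91.3 and 82.0. They were also narrower, with median widths of 1400, 1800 and 1200 bp against 1800, 2600 and 1800 bp. In 10 of the 237 genes a YD mouse had an island within 3 kb of a TSS, beyond the 1 kb limit. Among the genes outside the protein-coding class, 12 of 5305 lincRNA and 12 of 2958 antisense genes were on the RD side and none of either on the YD side, both smaller shares than the 237 and 6 of 21755 protein-coding genes.

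The same promoters were marked in most mice of the other diets. Of the 237 genes, between 161 (SD_3) and 237 (HF_1) had an island in the single SD, CR and HF mice, and 108 genes (45.6%) had one in all 9 of these mice, that is, in all 12 mice other than YD. None of the 237 was without an island in all 9. The corresponding count, genes with an island in no mouse of 1 diet and in all 12 other mice, was 2 for RD (Cntd1 and Coa3) and 0 for SD, CR and HF. The YD lists were among the shortest of the study, and the part of list length in these counts was not tested. No gene had an island in all 3 RD mice and in none of the other 12, and the same was true of YD. Of the 6 YD-side genes, all had an island in 7 of the 9 other mice, 5 in SD_3 and 3 in CR_1.

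**Figure D2:**
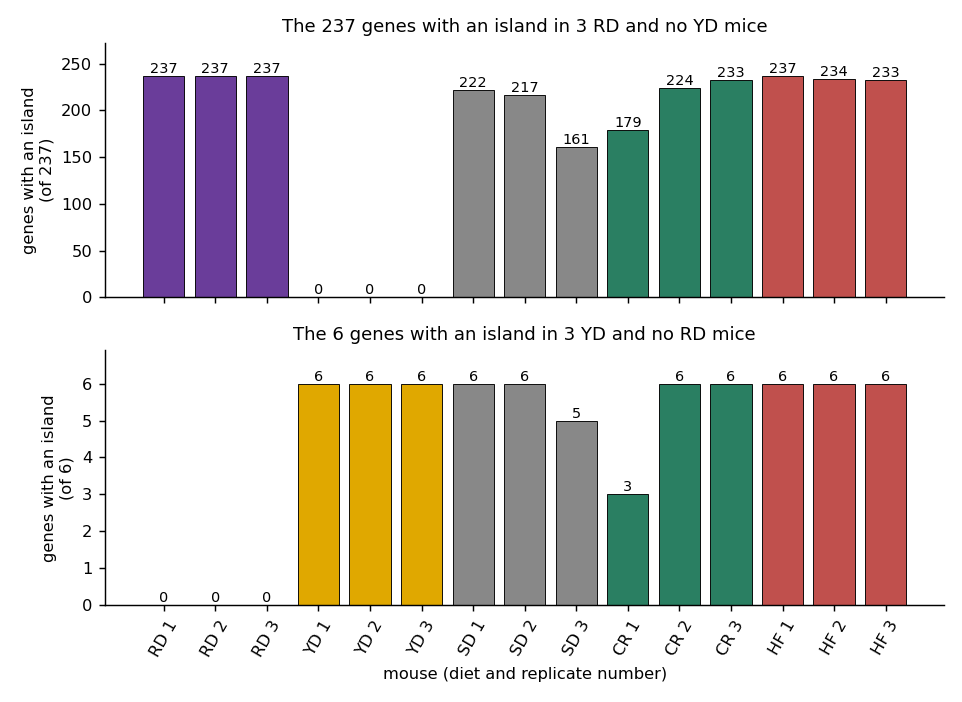
Number of the 237 RD-side genes (top) and of the 6 YD-side genes (bottom) with an island in each of the 15 mice, one bar per mouse, colored by diet. The RD-side genes were marked in 161 to 237 cases in each SD, CR and HF mouse, and the YD-side genes were marked in most SD, CR and HF mice. The empty bars of YD (top) and of RD (bottom) follow from how the genes were chosen. With lists of equal length the counts of such genes were 28 on the RD side and 57 on the YD side.

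The 12 RD-side genes with the widest mean islands, leaving out clones without a gene name, are described first. At Fat1, which encodes a large cadherin of cell polarity, the islands were 1400, 6600 and 6200 bp wide in RD_1 to RD_3 (chr8:45039001-45047200), 104 kb from the 5′ end of the gene, at the TSS of a shorter transcript. They ranked at the 8.70, 97.4 and 97.4 percentile of their lists, so that RD_1 held only a weak island there. Hps4, a subunit of the BLOC-3 complex that forms lysosome-related organelles, shared its islands of 3400, 3400 and 1400 bp with the divergent gene Srrd (chr5:112341001-112344600). Frs2, the adaptor that links fibroblast growth factor receptors to Ras signalling, had islands of 2600, 3200 and 2200 bp (chr10:117147201-117150400) and was marked in 8 of the 9 other mice.

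Foxa3, a forkhead factor of the hepatocyte network, had islands of 2000, 2800 and 2200 bp in the RD mice (chr7:19021201-19024000), at the 26.7, 52.0 and 78.9 percentile of the lists. It had an island in each of the 9 SD, CR and HF mice, and in no YD mouse. Sirt5, the mitochondrial desuccinylase, had islands of 2800, 3200 and 1200 bp at the 24.97, 36.1 and 25.7 percentile, but at different start sites of the gene, so that no base was covered in all 3 RD mice. The same held for D3Ertd254e, whose island was 10800 bp wide in RD_2 and 1200 and 1000 bp in RD_1 and RD_3, and for Pcdhga4, a protocadherin of the gamma cluster. The other genes in this group were Zfp975, a zinc finger gene (3600, 3000 and 1200 bp), Coa6, a cytochrome c oxidase assembly factor (3200, 2200 and 1600 bp), Abhd14b (2000, 4000 and 1000 bp), and Dlgap1, a postsynaptic scaffold (3600, 2600 and 1600 bp). The chosen islands of Dlgap1 lay at different sites in different mice, spread over chr17:70515001-70563200. All were at least 546 kb from the 5′ end of the gene.

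The 6 YD-side genes were Shmt2, Cntd1, Coa3, Anks3, Msl3 and Parp16. Shmt2, the mitochondrial serine hydroxymethyltransferase that passes carbon from serine to folate, had islands of 2400, 2000 and 800 bp in YD_1 to YD_3 (chr10:127520401-127522800) and none in RD. Cntd1, a cyclin-like protein of meiotic crossing over, and Coa3, another cytochrome c oxidase assembly factor, shared 1 divergent promoter with islands of 2000, 1200 and 1400 bp (chr11:101277401-101279400). Anks3, an ankyrin repeat protein of cilia, had islands of 1400, 1200 and 1000 bp. Msl3, a subunit of a histone acetyltransferase complex on chromosome X, had islands of 1000, 1600 and 1000 bp. Parp16, an ADP-ribosyltransferase of the endoplasmic reticulum, had narrow islands of 400, 1000 and 600 bp whose bases were not shared by the 3 mice. Their islands had a median score percentile of 13.4, 69.0 and 65.2 in YD_1 to YD_3, against 76.2, 79.1 and 76.5 for the shared promoters, and 1 of the 6 genes had an RD island within 3 kb of a TSS. Coa3 and Coa6 stood on opposite sides of the comparison.

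Metabolic genes on the RD side came from several pathways. In sugar metabolism, Hk1, an enzyme that phosphorylates glucose, had islands of 2000, 1800 and 1600 bp in RD_1 to RD_3 and none in YD, and was marked in 2 SD, 0 CR and 3 HF mice. These RD islands lay 38.7 kb from the 5′ end of the gene, at another of its annotated start sites. In cholesterol synthesis, Hsd17b7 (1200, 2400 and 2000 bp) and Idi1 (800, 2600 and 1600 bp) were on the RD side in all 3 mice. Slc25a1, the mitochondrial citrate carrier that feeds lipid synthesis, had islands of 2200, 1800 and 1200 bp, and Slc25a13, the aspartate-glutamate carrier citrin, of 600, 3600 and 1200 bp.

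Genes of stress responses and defence were also on the RD side. Eif2ak3, the PERK kinase of the unfolded protein response, had islands of 400, 1400 and 1400 bp, and Dnajc3, an endoplasmic reticulum co-chaperone, of 600, 2400 and 1400 bp. Ulk2, a kinase that starts autophagy, had islands of 1400, 1000 and 1400 bp. Irf9, a subunit of the interferon-activated transcription factor ISGF3, had islands of 1400, 3200 and 1000 bp, and Psmb8, a subunit of the immunoproteasome, of 800, 1600 and 1200 bp. Srxn1, the sulfiredoxin that restores oxidized peroxiredoxins and a known Nrf2 target, had islands of 1000, 1200 and 1000 bp at the 22.9, 36.4 and 42.7 percentile of the RD lists. Serpina10, an inhibitor of coagulation factors made by hepatocytes, had islands of 1400, 1600 and 1600 bp. List members on the RD side in all 3 mice were also Mrpl13 and Mrps2, 2 of 78 mitochondrial ribosomal protein genes (2.56%), and 8 of 365 zinc finger genes (2.19%). The share over all protein-coding genes was 1.09%. The zinc finger genes were Zfp91, Zfp418, Zfp512, Zfp609, Zfp623, Zfp799, Zfp975 and Zfp995. The islands of Mrps2 ranked at the 50.2, 4.88 and 3.98 percentile of the RD lists.

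Across 34 gene lists, the mean share of members with an island was higher in RD than in YD in 30, lower in 2 (Kupffer cell markers and keratins) and at 0 in both for 2. This is the direction of all protein-coding genes, and 17 of the 34 lists had a difference above that of all genes. The largest was in lipid and cholesterol synthesis, with 44, 42 and 32 of 55 genes marked in RD_1 to RD_3 and 33, 32 and 20 in YD_1 to YD_3, a difference of 20 points. RD_3, at 32 genes, did not exceed YD_1. In this list 7 genes (12.7%, compared with 3.81% of all genes) had an island in at least 2 RD mice and no YD mouse, and none the reverse. They were Hsd17b7, Idi1, Lss, Mvd, Mvk, Nsdhl and Scd2, of which all but Scd2 act in the synthesis of cholesterol. With lists of equal length the difference of the list was 3.64 points.

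The lists in which every RD mouse lay above every YD mouse were 4. The endoplasmic reticulum stress and autophagy list had 55, 58 and 54 of 64 genes marked in RD and 48, 50 and 34 in YD, and the proteasome subunits 34, 35 and 34 of 39 against 30, 31 and 24. The integrin-linked kinase and adhesion list had 32, 31 and 26 of 61 genes in RD against 24, 25 and 14, and the clock and immediate early list 32, 27 and 28 of 50 against 23, 26 and 20. In the clock list, Clock, Per1 and Per3 were marked in at least 2 RD mice and no YD mouse, 3 of 50 genes (6%, compared with 3.81% of all genes). By the same rule the endoplasmic reticulum list had 4 of 64 genes (6.25%). The proteasome list had 1 of 39 (2.56%) and the integrin-linked kinase list 2 of 61 (3.28%), both below the share of all genes. With lists of equal length no list kept all RD mice above all YD mice, and the mean difference was above 0 in 12 lists, below 0 in 17 and 0 in 5. Lists made of commonly marked genes have more room for a difference than lists of silent genes, so that these shares describe the lists and say nothing particular to any of them.

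In the other lists the mice of both diets overlapped. An island in at least 2 RD mice and no YD mouse, the rule behind the shares given here, was present at 3.81% of all protein-coding genes. The writers and erasers of the mark itself (H3K4 methyltransferases and demethylases) were marked at 31, 32 and 22 of 37 genes in RD and 22, 25 and 17 in YD, a difference of 18.9 points, second to that of the lipid list, and of 0.901 points with lists of equal length. Dpy30 and Setd7 were in at least 2 RD mice and no YD mouse, 2 of 37 genes (5.41%). In the Nrf2 and AhR list, Gsr, Srxn1 and Tkt were in at least 2 RD mice and no YD mouse, 3 of 45 genes (6.67%). The insulin, AMPK, sirtuin and mTOR list had Pik3ca, Sirt1, Sirt5 and Tsc2 there, 4 of 57 genes (7.02%), and the interferon and antigen presentation list Irf9, Nfkb1, Nlrc5, Psmb8 and Usp18, 5 of 75 (6.67%). Cytochrome P450 genes were marked at 20, 23 and 13 of 73 in RD and 15, 21 and 12 in YD, and only Cyp4a32 was in at least 2 RD mice and no YD mouse. Oxidative phosphorylation subunits, with 64, 69 and 64 of 78 genes in RD and 67, 67 and 48 in YD, and bile acid genes had no gene on either side. The secreted proteins of hepatocytes were the only list with more genes on the YD side, 1 of 40 genes (Apoc2, an activator of lipoprotein lipase) against 0. An island in at least 2 YD mice and no RD mouse was present at 0.244% of all protein-coding genes, and the list rests on this single gene.

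Hepatocyte markers had islands in both diets, and markers of the other liver cells had few. Apob, Ttr, Trf and Hnf4a had an island in all 6 mice, Apoa1 in 2 mice of each diet, and Alb, the albumin gene, in 1 RD and 3 YD mice. Of the 22 Kupffer cell and macrophage markers, 1 or 2 had an island in each mouse, and the defining markers Adgre1, Clec4f, Vsig4, Timd4, Cd5l, Marco, Csf1r and the C1q genes had none in any of the 6. Ptprc, the leukocyte antigen CD45, was the 1 gene of that list in at least 2 RD mice and no YD mouse (4.55% of the 22, compared with 3.81% of all genes). Of the sinusoidal endothelial markers, 3 or 4 of 24 had an island in the RD mice and 1 to 5 in the YD mice, the highest being 5 in YD_1, where 24.3% of all protein-coding genes were marked. Of the defining endothelial markers, Clec4g had an island in RD_1 and Pecam1 in RD_3, and Stab1, Stab2, Lyve1, Cdh5 and Kdr had none. Stellate cell markers numbered 0 to 2 of 24 in RD and 0 or 1 in YD, with Hand2 marked in RD_1 and none at Dcn, Lrat, Reln, Des or Pdgfrb, and cholangiocyte markers 2 of 14 in every mouse but YD_3, which had 0, with none at Krt7, Krt19, Epcam, Sox9 or Spp1. None of the 25 lymphocyte and neutrophil markers and none of the 39 Hox genes had an island in any of the 6 mice. Olfactory and vomeronasal receptor genes, which are silent in liver, set RD_2 apart, with 183 of 1464 genes marked there against 28 and 31 in RD_1 and RD_3 and 9 to 30 in the YD mice. Of these receptor genes 19 were in at least 2 RD mice and no YD mouse (1.298%) and 1 was on the reverse side.

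**Figure D3:**
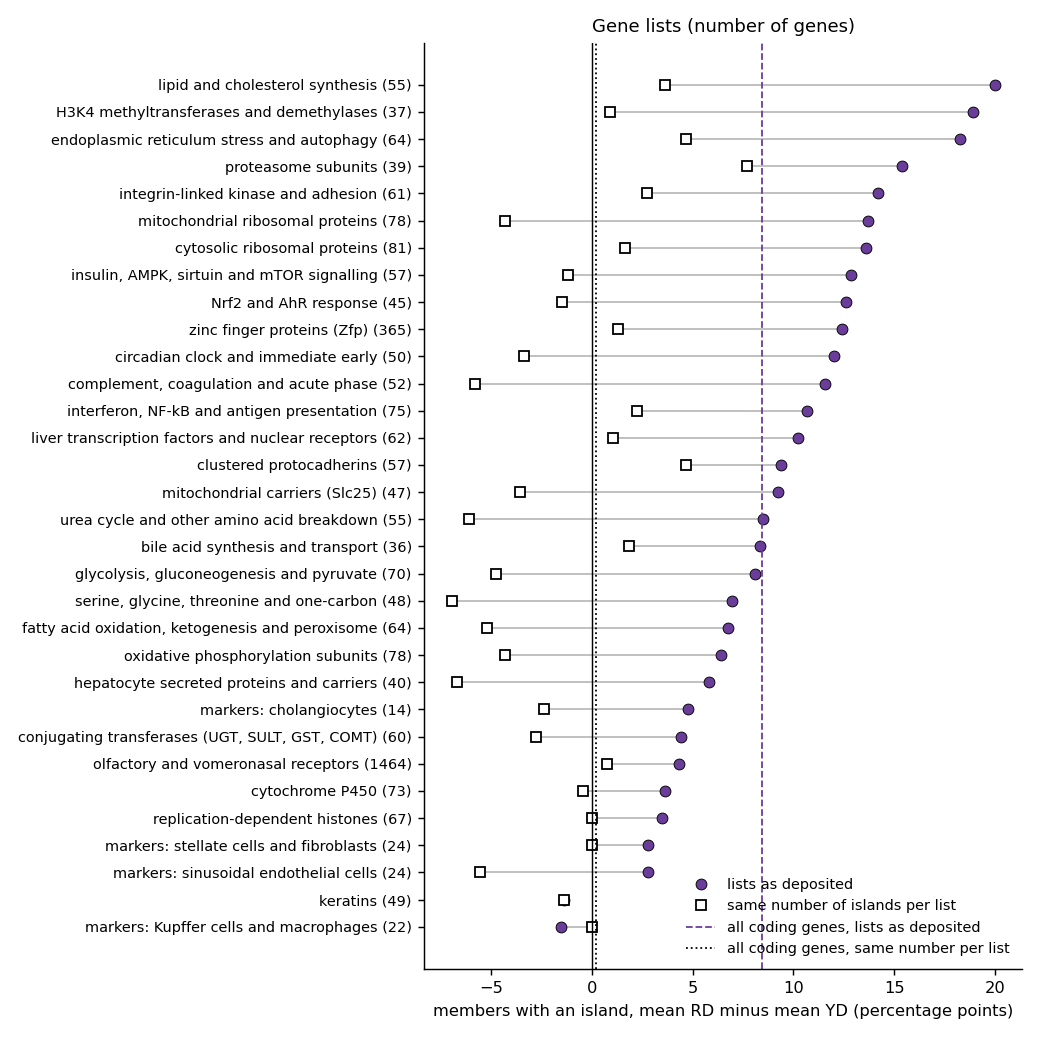
Difference between the mean RD and mean YD percentage of list members with an island (percentage points) for 32 of the 34 gene lists, with the number of genes in parentheses, for the lists as deposited (filled circles) and for lists of equal length (open squares). Vertical lines give the same for all coding genes, 8.45 and 0.192 points. Lipid and cholesterol synthesis is farthest to the right at 20 points, and most squares lie close to or below 0.

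At the 2203 promoters marked in all 6 mice the question was whether the islands differed in width or in their standing within the list. Median widths were 1800, 2600 and 1800 bp in RD_1 to RD_3 and 2600, 1600 and 1200 bp in YD_1 to YD_3. The widest medians belonged to RD_2 and YD_1, the deep libraries of each diet, and the groups overlapped. The means of the medians were 2067 ± 462 bp in RD and 1800 ± 721 bp in YD (SD, n = 3 each), a difference of 267 bp (two-sided exact permutation p = 0.6). Without both deep libraries it was 400 bp, and the 2 remaining mice of each diet did not overlap (exact permutation p = 0.333, the smallest possible).

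**Figure D4:**
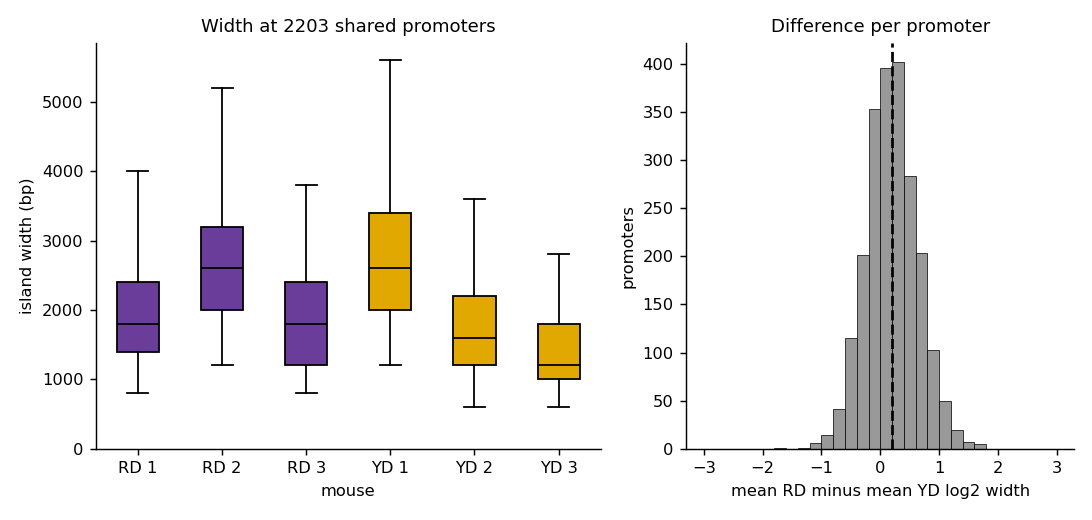
Left, width in bp of the islands at the 2203 shared promoters in each mouse (box, quartiles with the median; whiskers, 5th to 95th percentile). Right, number of promoters by the difference of the mean log2 width, RD minus YD, with the median of 0.19 dashed: RD_2 and YD_1 have the same median of 2600 bp, and the differences are spread on both sides of 0.

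No single promoter differed in width by limma on log2 widths (adjusted p under 0.05 at 0 of 2203 promoters, 0%). At an unadjusted p under 0.05 there were 35 promoters wider in RD and 3 narrower, and the median log2 difference over all promoters was 0.19. All 3 RD widths exceeded all 3 YD widths at 76 promoters (3.45%) and the reverse held at 13 (0.59%). With each list centred on its median, the unadjusted counts were 50 wider and 65 narrower, and again none passed the adjusted threshold.

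Among the genes whose RD and YD widths did not overlap, the 5 with the widest islands in RD relative to YD lay at 4 promoters. The divergent promoter of Myd88, the adaptor of Toll-like receptors, and Acaa1a, a peroxisomal thiolase of fatty acid oxidation, had islands of 4200, 4200 and 3800 bp in RD_1 to RD_3 and of 1200, 1800 and 1000 bp in YD_1 to YD_3 (chr9:119338401-119343200). Its log2 width difference was 1.65 ± 0.38 (SE, limma adjusted p = 0.993). In RD a single island spanned both start sites, while the YD islands covered different parts of the region with no base in common to all 6 mice. Ddx3x, an RNA helicase gene on chromosome X, had islands of 3600, 3400 and 4400 bp in RD and 1400, 2000 and 800 bp in YD. Gmps, of guanine nucleotide synthesis, had 1400, 2000 and 1800 bp in RD and 600 bp in each YD mouse, and Gpbp1l1 had 3400, 4400 and 4800 bp against 2400, 1400 and 1200 bp.

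In the other direction, again among genes without overlap, Zfp330 had islands of 600, 1400 and 1200 bp in RD and 3200, 2400 and 1800 bp in YD, with a log2 difference of -1.26 ± 0.46 (SE, limma adjusted p = 0.993). Eif1, a translation initiation factor, had 800, 1200 and 1000 bp against 2600, 1800 and 1400 bp. Map2k1, the MEK1 kinase, had 1400, 1600 and 800 bp against 3000, 1800 and 2000 bp. Eif4ebp2, a repressor of translation under mTOR, had 1600, 1400 and 800 bp against 2800, 2000 and 1800 bp. Jun, the immediate early transcription factor, had 2200, 2800 and 1600 bp in RD against 4600, 4000 and 3000 bp in YD, so that its narrowest YD island was wider than its widest RD island.

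The rank of an island's score among the 2203 shared promoters of the same list, in percentiles with 100 as the highest, was taken over the same genes in every list. By limma no promoter differed in rank at an adjusted p under 0.05 (0 of 2203, 0%). At an unadjusted p under 0.05, 65 promoters ranked higher in RD and 77 lower, and the smallest adjusted p was 0.355. All 3 RD ranks lay above all 3 YD ranks at 102 promoters (4.63%) and below them at 116 (5.27%), so that the directions were nearly balanced.

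That smallest adjusted p belonged to Poldip3 and Jun. Poldip3, an RNA-binding protein of mRNA export, ranked at 12.9, 0.386 and 14.9 in RD_1 to RD_3 and at 90.4, 76.6 and 68.4 in YD_1 to YD_3, a difference of -69.1 ± 9.11 percentile points (SE, limma adjusted p = 0.355). Jun ranked at 39.4, 42.4 and 37.5 in RD and at 87.0, 89.5 and 94.6 in YD, a difference of -50.6 ± 6.80 points (SE, limma adjusted p = 0.355). When the spread was estimated over all 15 mice of the study, these were the 2 promoters that passed, each with a limma adjusted p of 0.00643. At both promoters every RD rank lay below every YD rank.

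Beside Poldip3, the genes with the lowest RD ranks relative to YD, again among those without overlap, were Nr1i2, Litaf, Gnmt and Tmbim4. Nr1i2, which encodes the xenobiotic receptor PXR, ranked at 27.2, 21.5 and 0.0908 in RD and at 86.2, 50.7 and 85.6 in YD. Gnmt, the abundant glycine N-methyltransferase of hepatocytes, ranked at 7.92, 26.8 and 40.8 in RD and at 81.4, 75.1 and 79.9 in YD. Litaf, a regulator of endosomal sorting, and Tmbim4, a membrane protein of the Golgi, also ranked lower in every RD mouse. At both genes the chosen islands lay at different sites in different mice, so that these ranks do not compare a single promoter. They were spread over chr16:10975001-10993000 for Litaf and chr10:120201001-120211400 for Tmbim4. Litaf ranked at 42.7, 5.86 and 28.8 in RD against 96.3, 98.0 and 51.1 in YD, although its chosen islands were wider in RD. The islands of Litaf lay at least 73.2 kb from the 5′ end of the gene. The limma adjusted p-values of these 4 genes were between 0.490 and 0.651.

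By the same rule the highest RD ranks relative to YD were at Zfp952 and at 2 divergent promoters. Cdc45, a replication helicase subunit, and Ufd1, of protein degradation at the endoplasmic reticulum, shared islands that ranked at 62.5, 85.1 and 63.3 in RD and at 2.86, 36.7 and 11.9 in YD. Krit1, a protein of endothelial junctions, and Ankib1 shared islands that ranked at 77.8, 67 and 84.8 in RD and at 38.6, 6.04 and 25.8 in YD, a difference of 53.1 ± 10.97 points (SE, limma adjusted p = 0.490). Zfp952 ranked at 62.8, 98.8 and 45.0 in RD and at 22.1, 21.6 and 1.66 in YD, and its RD_2 island was 36400 bp wide.

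**Figure D5:**
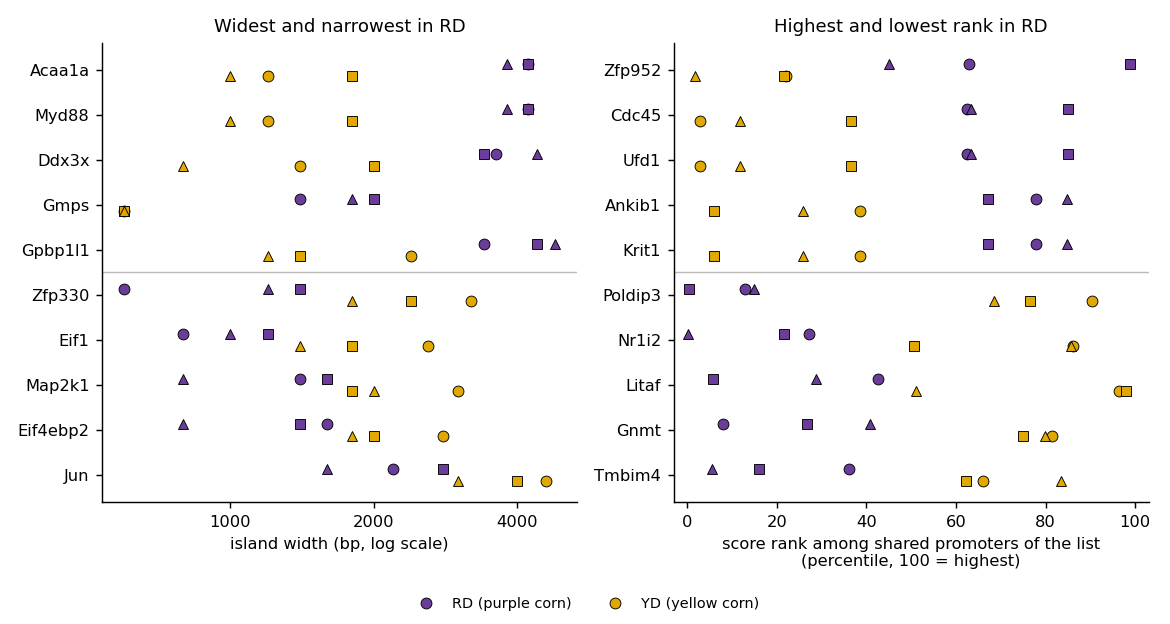
Left, island widths in bp (log axis) of the promoters with the widest and narrowest islands in RD relative to YD. Right, score ranks (percentile among the 2203 shared promoters of the list) of the promoters with the highest and lowest ranks in RD relative to YD. Each point is 1 mouse (circle, square and triangle for replicates 1, 2 and 3, and the 3 YD values of Gmps coincide at 600 bp). The genes were chosen for groups that do not overlap. For Litaf and Tmbim4 the islands lay at different sites in different mice.

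By list, the medians of the rank difference were given for the 24 lists with at least 5 shared promoters, and lay above 0 in 9 and below 0 in 15, beside a median of -0.10 points over all shared promoters. Hepatocyte secreted proteins and carriers ranked lower in RD at 10 of 12 genes (median -7.63 points), and urea cycle and amino acid breakdown genes at 15 of 17 (median -5.39 points), compared with 1108 lower and 1094 higher over all. Cytochrome P450 genes had a median of -19.9 points over 5 genes, with 2 of them (Cyp27a1 and Cyp2d26) lower in every RD mouse than in any YD mouse, which held at 5.27% of all shared promoters. Clock and immediate early genes had a median of -10.97 points over 15 genes, with 2 of them (Jun and Junb) lower in every RD mouse, beside the same 5.27%. These 4 medians stayed below that of all genes with percentiles taken in the full list, with centred log2 scores and without both deep libraries, where that of the hepatocyte proteins was -1.96 points from that of all genes. Their own values moved: with percentiles in the full list, where the median of all promoters was 7.68 points, the medians of the hepatocyte proteins and of the urea cycle list turned positive, at 0.34 and 2.61 points, and those of the cytochrome P450 and clock lists were -2.36 and -1.35 points. Without both deep libraries the 4 medians were -2.23, -11.3, -16.3 and -9.38 points, in the order hepatocyte proteins, urea cycle, cytochrome P450 and clock, beside -0.28 over all promoters.

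Bile acid genes had a median of -9.20 points over 7 genes, and of -1.14 points with percentiles in the full list and -2.15 without both deep libraries. In this list 3 of the 7 genes, Cyp27a1 and the canalicular transporters Abcb4 and Abcc2, were lower in every RD mouse than in any YD mouse (5.27% of all shared promoters). Cyp27a1 ranked at 78.1, 63.7 and 60.6 in RD and at 89.9, 81.2 and 90.9 in YD. Among the transcription factors Nr1i2 was lower and Rara higher in every RD mouse than in any YD mouse. Integrin-linked kinase and adhesion genes had a median of 10.4 points over 13 genes, above that of all genes in each of the scalings tried. In this list Rac1, at 50.3, 34.0 and 34.8 in RD and 20.3, 0.431 and 11.1 in YD, and Rock1, at 58.2, 62.6 and 64.0 against 6.51, 37.2 and 13.98, were higher in every RD mouse, 2 of 13 genes beside 4.63% of all shared promoters. Cyp27a1, Cyp2d26, Junb, Abcb4, Abcc2, Rara, Rac1 and Rock1 were singled out after their values were seen, and none passed the limma test.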

How the data were processed

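H3K4me3 PAT-ChIP-seq was performed on formalin-fixed, paraffin-embedded liver sections, with 1 library per mouse read in 50 bp single-end mode. Per the study's methods the authors aligned the reads to mm10 with BWA, removed unmapped, duplicate and low-quality reads (MAPQ under 1) and reads outside chromosomes 1 to 19 and X with SAMtools, and called enriched stretches with SICER (window and fragment 200 bp, gap 400 bp, FDR under 0.05). The deposited lists hold no p-value or FDR, and their form is that of SICER candidate islands before a comparison with a control. The use of an input control, and whether these lists were filtered by FDR, are not given in the sources used here. The deposited files list, per mouse, the islands with their coordinates and a score (the summed -ln Poisson probability of the windows of the island), which the authors did not scale between mice. Replicates were not pooled. Scores and widths grow with depth and were therefore compared as ranks within a list or beside the depth. Reads per library were recovered from the score steps of islands 1 window wide with an effective genome fraction of 0.74, and each came out whole within 0.001.

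Islands were assigned to genes with GENCODE M21 (53843 genes, 21755 protein-coding). Where a gene had several islands in a mouse, the widest was used. Group means were compared by exact permutation tests. Log2 widths and ranks were fitted with limma 3.58.1 over all 2203 shared promoters with Benjamini-Hochberg adjustment at 0.05, after the fits had been tested on simulated data. Named genes were the 12 widest at promoters marked in all mice of 1 diet only, list members of that class, and, at shared promoters whose 3 values of 1 diet all lay above those of the other, the 5 most different in each direction, without clone-named genes. Of the promoter windows, those outside the islands were passed over. The members and lists were chosen with earlier results of these data known. Alternatives covered the islands kept, the TSS distance, the genes, the island chosen, the fit and each mouse left out. Some items are not reported here.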

Additional observations from a re-analysis of the deposited data

How the results depend on the processing

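Presence counts depended strongly on list length, and the tests of width and rank had few mice. No gene can be called from presence in 3 mice against 3, and no mean difference can pass 0.05 in an exact test of this size. Genes with an island in at least 2 RD and no YD mouse numbered 829, and 276 with equal list lengths and 534 with the common lowest score. The reverse count, 53, became 324 with equal list lengths, 83 with the TSS inside the island and 117 without both deep libraries. The count for all 3 RD mice, 237, became 28 with equal list lengths, 78 with the common lowest score and 675 without both deep libraries. The count for all 3 YD mice, 6, became 57 with equal list lengths, 3 with islands in the upper part of each list, from its median score up, 3 with the common lowest score, 1 with the TSS inside the island and 117 without both deep libraries. The common lowest score and the removal of both deep libraries were chosen after seeing the data.

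Without RD_1, RD_2, RD_3, YD_1, YD_2 or YD_3 in turn, the count of 829 became 421, 389, 493, 1320, 1516 and 1027, the count of 53 became 113, 261, 94, 16, 18 and 31, the count of 237 became 421, 389, 493, 476, 530 and 319, and the count of 6 became 14, 58, 11, 16, 18 and 31. Part of this range follows from the rule itself, since fewer mice then have to carry or lack an island. The difference of 10369 islands per list ranged from 4177 (without RD_2) to 13914 (without RD_3) and that of 8.45 points from 5.82 (without YD_3) to 10.3 (without YD_2). Without both deep libraries the difference of islands per list was 3400.5. The median width difference, 267 bp, ranged from -167 bp without YD_3 to 600 bp without YD_1, and was 0 bp without RD_2, so that its direction rests on single libraries. All islands of at least 600 bp, a 3 kb distance, all annotated genes and chromosomes 1 to 19 kept each count they were applied to within 1.5 times.

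No promoter passed the limma threshold for width under any alternative, and unadjusted counts ranged up to 287 wider and 0 narrower without YD_1. For rank, 2 promoters passed when the spread was estimated over all 15 mice and 0 under the other alternatives. With percentiles in the full list, 180 promoters were higher and 7 lower in RD at an unadjusted p under 0.05, where the median of all promoters moved to 7.68 points. Same-numbered mice did not deviate together (correlations of presence of -0.00913, 0.00319 and 0.0231), and nothing in the labels pairs them. With the replicate number as a block, the exact permutation p was 0.25 for the difference of 10369 islands and of 8.45 points and 0.75 for that of 267 bp, with 0.25 the smallest possible, and limma called 0 promoters for width and 0 for rank.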
